A study of Mus musculus with 6 samples.

Results

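The genes described here are 10 mouse genes of iron storage, iron uptake and heme degradation: Fth1, Ftl1, Tfrc, Slc40a1, Slc11a2, Hmox1, Ireb2, Aco1, Ncoa4 and Steap3. They were taken by gene name from a count table of 55232 features. All 10 were in the table, and 9 had enough reads to be tested, the exception being Slc40a1. The RNA came from mouse pulmonary microvascular endothelial cells, which the labels call a cell line, which shared a culture for 12 h, in its lower chamber, with TCMK-1 cells, a line of kidney tubule epithelium from the mouse. For the 3 control samples the TCMK-1 cells were untreated. For the other 3 samples, called the repletion group here and IR in the labels, TCMK-1 cells had gone through ATP depletion followed by ATP repletion. The endothelial cells were themselves untreated in both groups, and the means of ATP depletion is not given in the sources used here. Separate cultures are not stated for the samples within a group, and the p-values therefore reflect variation among these 6 libraries that may be technical in origin.

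The libraries held 15582349 to 17817618 counts and 17899 to 22130 features with at least 1 count. Of 12 endothelial markers, 11 passed the filter on low counts. Their summed level was 2391 to 2667 CPM (a feature's counts scaled to a common library total) in control and 2535 to 2983 in the repletion group, and only Cldn5 was nearly absent. In the edgeR test used below, 4 of the 11 were called higher (Tek, Erg, Eng and Egfl7) and 2 lower (Vwf and Esam). Over all tested features, 20.5% were called higher and 19.2% lower. Erythroid markers, which would bring globin, heme and ferritin transcripts, were all under 1 CPM and summed to 0.168 to 0.503 CPM in control and 0.449 to 1.03 in the repletion group. Of 10 leukocyte markers, Itgam, Marco, Spic and Tyrobp were at 0 in all libraries and 2 passed the filter. The list summed to 378 to 417 CPM in control and 223 to 311 in the repletion group, nearly all of it Cd68, a lysosomal glycoprotein gene, which fell. Of 12 kidney tubular markers, Epcam, Slc34a1, Umod and Krt18 were at 0, and the sum went from 11.7 to 14.3 CPM in control to 23.2 to 25.5 in the repletion group. Cubn made up most of that difference, at a mean of 3.52 CPM in control and 13.8 in repletion samples. Mitochondrially encoded genes held 2.05% to 2.24% of the counts in control and 2.45% to 3% in the repletion group. The part of these markers and of this share in the results below was not tested.

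Cells keep iron in ferritin, a hollow shell built of heavy chains (Fth1), which oxidize the metal, and light chains (Ftl1), which help to lay down the mineral core. Iron enters bound to transferrin through the transferrin receptor (Tfrc), is reduced in the endosome by Steap3, and leaves the endosome through the transporter DMT1 (Slc11a2), while ferroportin (Slc40a1) exports it from the cell. Ncoa4 carries ferritin to lysosomes for breakdown, and heme oxygenase 1 (Hmox1) splits heme into biliverdin, carbon monoxide and iron. The iron regulatory proteins encoded by Aco1 and Ireb2 bind RNA hairpins called iron-responsive elements when iron is scarce. Bound near the start of a transcript they block its translation, and bound in the 3′ UTR of Tfrc they protect the transcript from decay.

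The hairpins are shown because they are a sequence feature that several of these genes share. Tfrc and Fth1 are classic targets of the iron regulatory proteins, so matches in such genes were foreseeable and are no independent result. Annotated transcripts (GENCODE M21, GRCm38) were searched on the transcribed strand for an unpaired C, then 5 bases, then the loop CAGTGN, with the 5 bases paired to those after the loop and at least 4 of 5 pairs in the stem below the C. Sites of 27 bases were found in the 5′ UTR of Fth1, Ftl1 and Slc40a1 and at 4 places in the 3′ UTR of Tfrc. Of the annotated coding transcripts, 4 of 5 held the site in Fth1 and 2 of 3 in Ftl1. For Slc40a1 it was 1 of 4, and for each site of Tfrc 1 of 3. Counts per gene do not show which transcripts were present. In the following lines capitals mark the loop, and T stands for U.
Fth1 (chr19:9982733-9982759, + strand, exon 1): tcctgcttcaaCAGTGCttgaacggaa
Ftl1 (chr7:45459780-45459806, - strand, exon 1): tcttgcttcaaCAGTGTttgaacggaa
Slc40a1 (chr1:45925466-45925492, - strand, exon 1): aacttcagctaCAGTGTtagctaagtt
Tfrc (chr16:32631220-32631246, + strand, exon 19): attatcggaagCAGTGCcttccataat
Tfrc (chr16:32631599-32631625, + strand, exon 19): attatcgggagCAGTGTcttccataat
Tfrc (chr16:32631664-32631690, + strand, exon 19): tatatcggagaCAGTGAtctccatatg
Tfrc (chr16:32631711-32631737, + strand, exon 19): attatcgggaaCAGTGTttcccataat

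Such matches were rare. Among annotated genes in the count table, 6 of 21176 with a 5′ UTR (0.0283%) and 11 of 21168 with a 3′ UTR (0.0520%) held one, over UTRs of all lengths. The other 5′ matches were in the ferritin copy Ftl1-ps1, in the heme synthesis gene Alas2 and in Ppp1r1b. A match describes letters and pairing only, and the search found none in the other 6 genes.

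**Figure D1:**
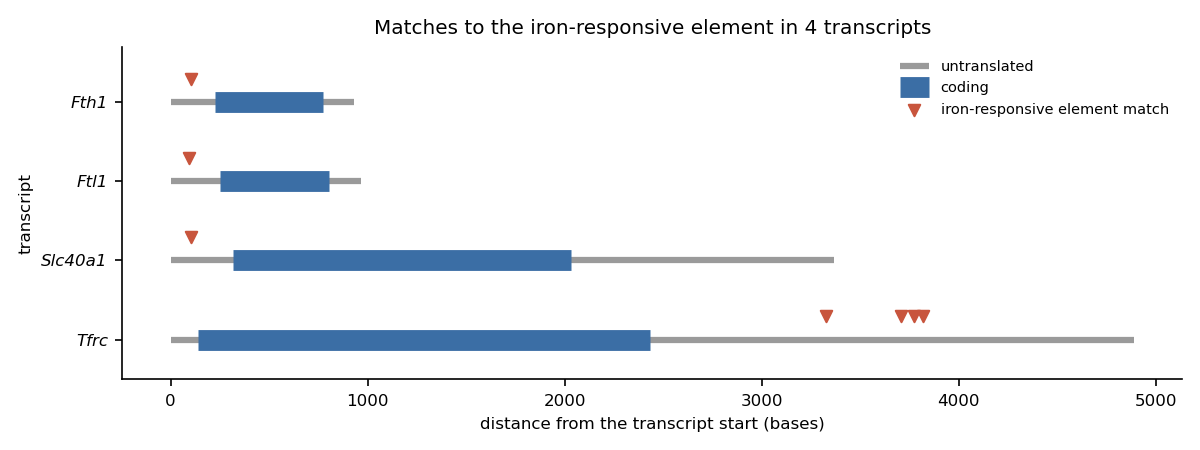
Position of the iron-responsive element matches (red triangles) along 1 annotated transcript each of Fth1, Ftl1, Slc40a1 and Tfrc, in bases from the transcript start; thin grey bars are untranslated and thick blue bars coding sequence. Fth1, Ftl1 and Slc40a1 each carry 1 match before the coding sequence, and the 4 matches of Tfrc lie after it.

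In the repletion group, the ferritin genes Fth1 and Ftl1 and the heme oxygenase gene Hmox1 were lower, at 0.546, 0.558 and 0.602 times the control level. The transferrin receptor gene Tfrc and the iron regulatory protein gene Ireb2 were higher, at 1.25 and 1.34 times. Slc11a2, Aco1, Ncoa4 and Steap3 did not pass an adjusted p of 0.05. These p-values are from the quasi-likelihood test of edgeR with Benjamini-Hochberg adjustment over all 13804 tested features, of which 39.7% were called. The count of 3 lower genes among 9 (33.3%) stands against 19.2% of all tested features, and the count of 2 higher genes (22.2%) is close to the 20.5% of all features. The median log2 fold change was -0.33 over the 9 genes and 0.00 over all tested features. In bulk RNA, fewer cells of a type and less RNA per cell cannot be told apart.

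Fth1 (ENSMUSG00000024661, chromosome 19, 9982703 to 9985092 in GRCm38) stood at 6304, 5463 and 4990 CPM in control samples 1, 2 and 3 and at 3673, 2581 and 2895 in repletion samples 1, 2 and 3. Every repletion sample lay below every control sample, which held for 25.4% of all tested features, while 50.3% had groups that stood apart in either direction. The means were 5586 ± 665 and 3050 ± 563 CPM (SD, n = 3). This is a log2 fold change of -0.87 ± 0.12 (SE), and its edgeR adjusted p was 4.1e-05. Ftl1 (ENSMUSG00000050708, chromosome 7, 45457944 to 45459884) stood at 2587, 2145 and 2708 CPM in control and at 1256, 1593 and 1301 in repletion samples, and its groups did not overlap either. Its log2 fold change was -0.84 ± 0.11 (SE), and its edgeR adjusted p was 2.8e-05.

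Ferritin took up a visible share of these transcriptomes. By mean CPM, Fth1 ranked 6 and Ftl1 ranked 21 among all 55232 features. Together they held 0.788% ± 0.0637 of a library's counts in control and 0.452% ± 0.0486 in repletion samples (SD, n = 3). Very abundant transcripts were often lower here: of the 100 most abundant features, 76.0% were called, 61.0% lower and 15.0% higher. Fth1 is listed at 866 bases, Ftl1 at 1340 and Hmox1 at 1751. Tested features of 2000 bases or less had a median log2 fold change of -0.14, and 19.9% of them were called lower. Those over 5000 bases, among them Tfrc and Ireb2, had a median of 0.13, and 29.5% were called higher. With each library's trend along length and GC content taken out, the log2 fold changes of Fth1, Ftl1 and Hmox1 were -0.69, -0.67 and -0.58 and all 3 remained called.

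Annotated copies of Fth1 and Ftl1 held few counts beside the genes themselves. Such counts cannot show how many reads the genes lost, because reads that fit both may be left uncounted. The only copy of Fth1 at 95% identity had at most 1 count in a library. The 6 copies of Ftl1 at that identity held 1.48% to 1.87% as many counts as Ftl1 itself. Ftl1-ps1, the most abundant of them, had 556, 525 and 712 counts in control and 295, 359 and 250 in repletion samples and fell by 1.00 ± 0.16 (SE) on the log2 scale. Reads could be divided between it and Ftl1, so it is no separate evidence for the direction of Ftl1.

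The 250 bases before the annotated start of Ftl1 are shown because both ferritin genes fell by similar amounts (RefSeq, GRCm38.p6). The antisense feature Gm10252, which had 4 to 43 counts in a library, shares exon positions with Ftl1. Both strands of the 250 bases were searched for 6 motifs. CCAAT and GGGCGG, marked in capitals, occur in 33.8% and 32.7% of 32851 such windows. Windows with the antioxidant response letters TGACNNNGC or TGAGNNNGC made up 23.0%, with TATAAA 12.4% and with ACGTG 16.6%, and the window of Ftl1 held none of these. The nearest window of Fth1 held 1 CCAAT and 3 GGGCGG matches and none of the others. These matches describe letters only, and bases further upstream were not searched, so missing motifs say nothing about sites there. No window was available for Hmox1, Slc40a1 and Slc11a2.
Ftl1 (chr7:45459887-45460136, - strand): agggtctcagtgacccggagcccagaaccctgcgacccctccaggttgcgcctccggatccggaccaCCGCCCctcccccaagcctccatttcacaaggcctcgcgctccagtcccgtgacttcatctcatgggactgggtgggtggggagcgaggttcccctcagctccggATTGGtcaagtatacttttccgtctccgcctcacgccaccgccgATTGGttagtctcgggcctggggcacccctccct

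**Figure D2:**
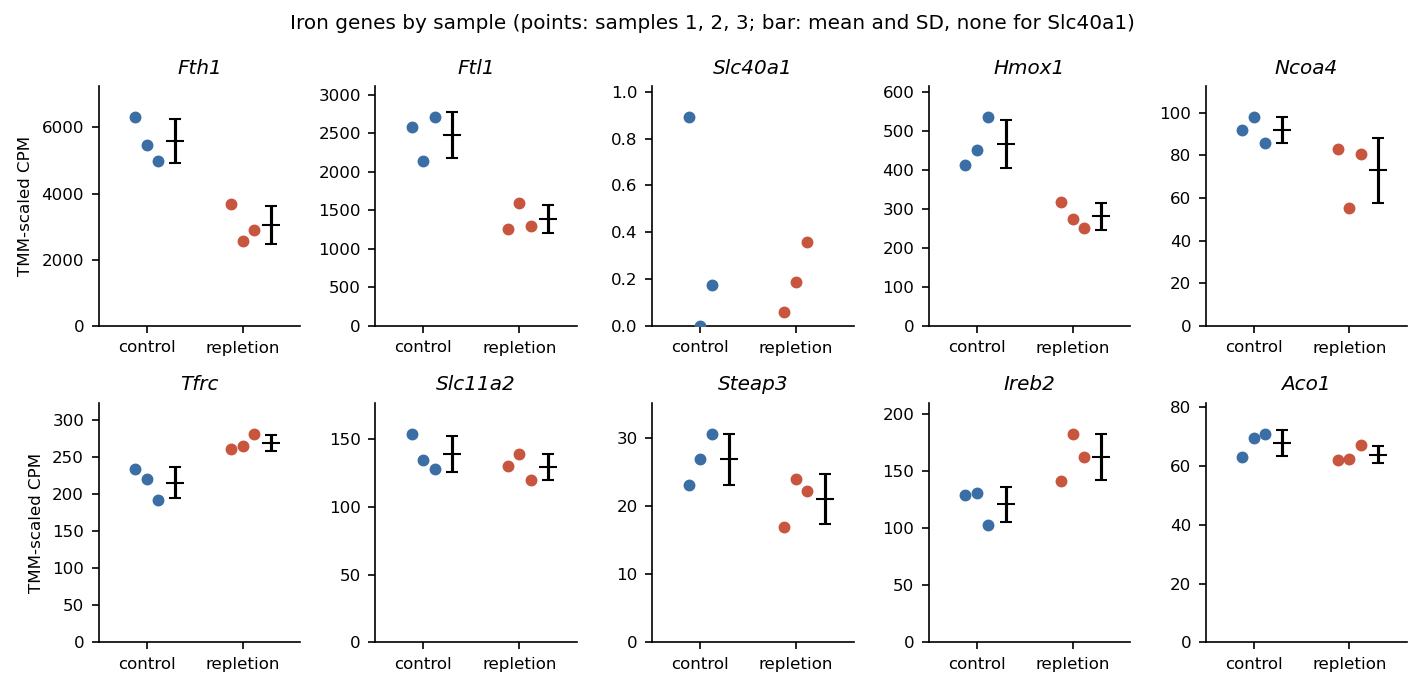
TMM-scaled CPM (vertical axes, each from 0) of the 10 genes in the 3 control samples (blue) and the 3 repletion samples (red), with the mean and SD beside them (none for Slc40a1). The groups stand apart for Fth1, Ftl1, Hmox1 and Ncoa4, lower in the repletion group, and for Tfrc and Ireb2, higher; Slc40a1 stays under 1 CPM.

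Hmox1 (ENSMUSG00000005413, chromosome 8, 75093621 to 75100589) stood at 414, 452 and 536 CPM in control and at 319, 274 and 252 in repletion samples. All repletion samples were below all control samples. The log2 fold change was -0.73 ± 0.12 (SE), and its edgeR adjusted p was 1.4e-04. Hmox2, the constitutive heme oxygenase gene, had a mean of 18.1 ± 1.17 CPM in control and 14.5 ± 2.89 in repletion samples (SD, n = 3), with a log2 fold change of -0.32 (edgeR adjusted p 0.149).

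Ncoa4 (ENSMUSG00000056234, chromosome 14, 32159865 to 32179855), the ferritin cargo receptor gene, stood at 91.7, 97.8 and 85.8 CPM in control and at 82.8, 55.5 and 80.7 in repletion samples. Repletion sample 2 was the lowest of the 6, and the highest repletion sample was just under the lowest control sample. The log2 fold change of -0.33 ± 0.14 (SE) reached an edgeR adjusted p of 0.0625. The gene passed with the length and GC trend removed (-0.52, adjusted p of 0.00544), with limma-voom (0.0493), with no filter (0.0156) and without repletion replicate 1 (0.0157), and its log2 fold change was -0.17 without repletion replicate 2 (0.244), over a range of adjusted p of 0.00480 to 0.244. Its processed copy Gm6768 held 11.1% to 14.0% as many counts, and reads could be divided between them, so the values of Ncoa4 are uncertain.

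Slc40a1, the ferroportin gene (ENSMUSG00000025993, chromosome 1, 45908068 to 45926523), had 14, 0 and 3 counts in control and 1, 3 and 6 in repletion samples. With so few counts in libraries of this depth, no difference in the iron exporter was detectable. The groups overlap, and no fold change is given.

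On the uptake side, Tfrc (ENSMUSG00000022797, chromosome 16, 32608920 to 32632794) stood at 233, 220 and 192 CPM in control and at 260, 264 and 281 in repletion samples. Every repletion sample was above every control sample, as it was for 25.0% of all tested features. The log2 fold change was 0.32 ± 0.10 (SE), with a 95% interval of 0.10 to 0.54, and edgeR put its adjusted p at 0.0209. The call was lost in 6 of 16 alternatives, among them without control replicate 2 (0.0587), control replicate 3 (0.156) or repletion replicate 3 (0.105) and with no filter (0.0548). The adjusted p ranged from 0.00719 to 0.156.

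The other uptake genes did not pass. Slc11a2 (ENSMUSG00000023030, chromosome 15, 100387898 to 100425072) stood at 154, 135 and 128 CPM in control and at 130, 139 and 120 in repletion samples, which overlap. Its log2 fold change of -0.10 had a 95% interval of -0.33 to 0.13, and edgeR put its adjusted p at 0.493. Steap3 (ENSMUSG00000026389, chromosome 1, 120190757 to 120272705), the endosomal ferrireductase gene, stood at 23.1, 26.9 and 30.6 CPM in control and at 16.9, 23.9 and 22.2 in repletion samples. Here the highest repletion sample lay above the lowest control sample. Its log2 fold change was -0.36 ± 0.16 (SE), at an edgeR adjusted p of 0.0863. It passed with the length and GC trend removed (0.0448), without control replicate 1 (0.0440) and without repletion replicate 2 (0.0401), over a range of 0.0401 to 0.298.

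The genes of both iron regulatory proteins were expressed. Ireb2 (ENSMUSG00000032293, chromosome 9, 54863789 to 54912530), which encodes the protein that is degraded when iron is plentiful, stood at 129, 131 and 103 CPM in control and at 142, 183 and 163 in repletion samples. Its groups did not overlap. The log2 fold change was 0.42 ± 0.12 (SE), and its edgeR adjusted p was 0.0103. It was 0.26 (edgeR adjusted p 0.0403) once the length and GC trend was taken out. The call was lost in 2 of 16 alternatives, among them without control replicate 3 (0.0899), over a range of 0.00168 to 0.0899. Aco1 (ENSMUSG00000028405, chromosome 4, 40143081 to 40198338), whose product is an aconitase when it holds an iron-sulfur cluster and binds RNA when it does not, stood at 63.0, 69.6 and 71.0 CPM in control and at 62.1, 62.3 and 67.2 in repletion samples, which overlap. Its log2 fold change of -0.09 had a 95% interval of -0.32 to 0.14, and edgeR put its adjusted p at 0.554.

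**Figure D3:**
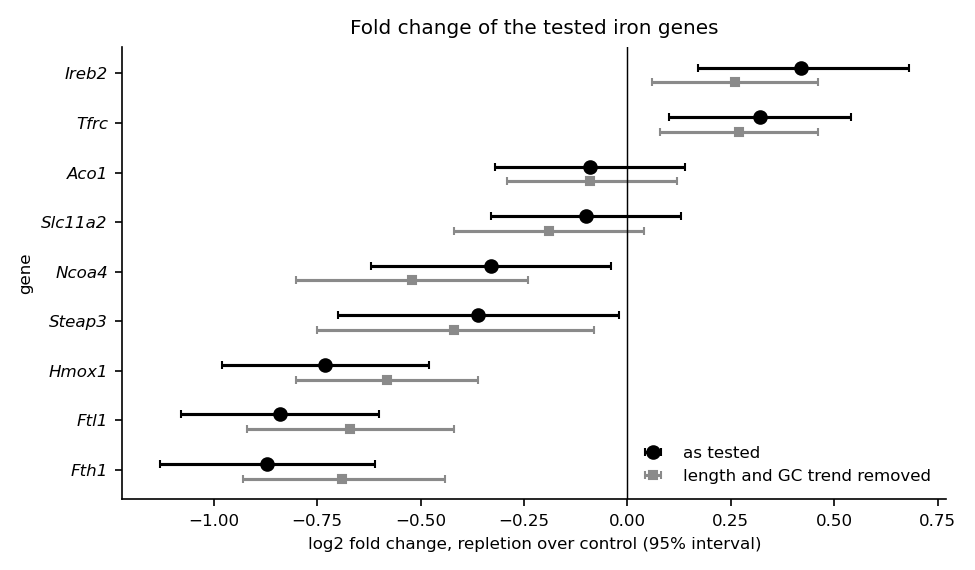
Log2 fold change of repletion over control (horizontal axis) with its 95% interval for the 9 tested genes, as tested (black circles) and after removal of each library's trend with length and GC content (grey squares). Fth1, Ftl1 and Hmox1 lie below 0 and Tfrc and Ireb2 above 0 in both, while Ncoa4 moves from -0.33 to -0.52.

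The authors' deposited table gave similar sizes for these genes. Its log2 fold changes were -0.87 for Fth1, -0.84 for Ftl1, -0.73 for Hmox1, 0.32 for Tfrc and 0.43 for Ireb2, with deposited adjusted p-values of 2.2e-10, 4.5e-11, 3.1e-08, 0.0101 and 0.00575. For Ncoa4 and Steap3 the authors' deposited table gave adjusted p-values of 0.0794 and 0.141.

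Levels were compared between genes as CPM per kilobase of listed length. In control, Fth1 had 6450 CPM per kilobase, followed by Ftl1 with 1851 and Hmox1 with 267. Tfrc, Slc11a2, Aco1, Ireb2 and Ncoa4 followed with 34.8, 21.9, 15.1, 12.8 and 9.80, and Steap3 and Slc40a1 came last with 4.70 and 0.0394. Each neighbour in this order lay apart from the next across the 3 control samples. The order also rests on the listed lengths, and other lengths were not tried. In the repletion group, Fth1 had 3521 CPM per kilobase and Ftl1 1032, and Ireb2 (17.1) stood before Aco1 (14.2). The repletion samples of Slc11a2 and Ireb2 overlapped on this scale, as did those of Ireb2 and Aco1.

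Ratios of 2 genes within a library need no scaling between libraries. With 3 samples against 3, the two-sided exact permutation test cannot give a p below 0.1, and 6 ratios were compared. The ratio of Tfrc to Fth1, uptake to storage, was 0.0370, 0.0403 and 0.0384 in control and 0.0707, 0.102 and 0.0973 in repletion samples. All repletion libraries were above all control libraries, and the ratio was 2.31 times higher (exact permutation p of 0.1, adjusted 0.200). The ratio of Ireb2 to Aco1 was 2.05, 1.88 and 1.45 in control and 2.28, 2.94 and 2.42 in repletion samples (1.43 times, exact permutation p of 0.1, adjusted 0.200). Ncoa4 to Fth1 was 1.44 times higher with the same exact permutation p, and its groups did not overlap either.

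The balance of the ferritin chains did not separate the groups. Ftl1 to Fth1 was 0.410, 0.393 and 0.543 in control and 0.342, 0.617 and 0.450 in repletion samples, with an exact permutation p of 1.00. Repletion sample 1 had the lowest and repletion sample 2 the highest ratio of the 6 libraries. Hmox1 to Hmox2 was 0.762 times the control ratio, with groups that overlapped (exact permutation p of 0.200, adjusted 0.300). Tfrc to Slc40a1 cannot be read, because Slc40a1 had between 0 and 14 counts.

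**Figure D4:**
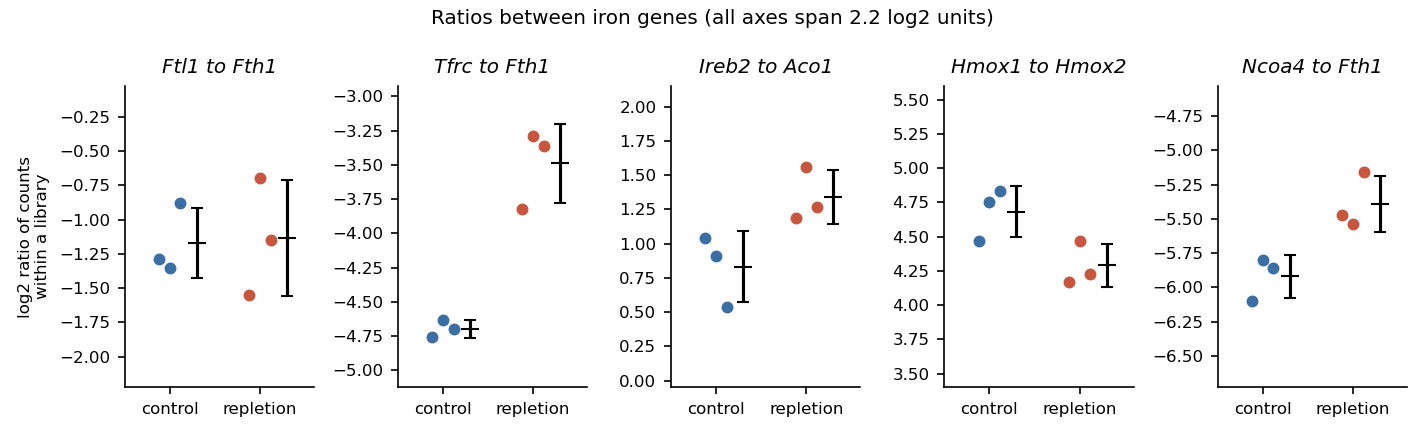
Log2 ratio of the counts of 2 genes within each library (vertical axes, all of equal span) for control (blue) and repletion (red) samples, with mean and SD. Tfrc to Fth1, Ireb2 to Aco1 and Ncoa4 to Fth1 are higher in all 3 repletion libraries than in any control library, and Ftl1 to Fth1 overlaps.

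Genes with iron-responsive element matches did not move as 1 group. Of the 6 genes with a 5′ match, 3 were tested, Fth1, Ftl1 and the copy Ftl1-ps1, and all 3 fell, against 19.2% of all tested features. Ftl1-ps1 may share reads with Ftl1 and is no separate evidence. Of 11 genes with a 3′ match, 10 were tested. Tfrc, Jaml and 4931428F04Rik rose, Rab11fip5, Trim23 and Zbtb44 fell, and 4 were not called, against 20.5% higher and 19.2% lower over all tested features. The rise of 4931428F04Rik rests on few reads, 5, 3 and 21 counts in control and 37, 13 and 45 in repletion samples. Its edgeR adjusted p was 0.0480. Jaml, a cell adhesion gene, went from 16, 31 and 33 counts to 94, 164 and 176, a log2 fold change of 2.42 ± 0.33 (SE). A list of other transcripts known to carry an element had 5 tested genes. Of these, 2 rose (40.0%), 1 fell (20.0%) and 2 were not called, with a median log2 fold change of 0.30. Cdc42bpa and Cdc14a rose, and neither was called once the length and GC trend was taken out. The count that rose was 1 without control replicate 3 or without repletion replicate 2. Cdc42bpa, a kinase gene, had a log2 fold change of 0.58, and of 0.13 (edgeR adjusted p 0.327) without that trend, over a range of 1.3e-04 to 0.403.

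The wider pathway was described with 7 lists of 101 genes in all, of which 91 were tested. Of these, 12 rose (13.2%) and 28 fell (30.8%), against 20.5% and 19.2% of all tested features, with a median log2 fold change of -0.21. The lists were compared by these counts only.

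Heme handling moved in both directions. Of 14 tested genes for heme breakdown, heme transport and the regulators of Hmox1, 4 rose and 4 fell, with a median of 0.15. That is 28.6% each way, against 20.5% higher and 19.2% lower of all tested features. Slc48a1, which encodes the transporter that moves heme out of lysosomes, stood at 138, 157 and 154 CPM in control and at 59.6, 62.0 and 62.5 in repletion samples. It fell by 1.29 ± 0.10 (SE), the smallest p of any list gene called lower, and its edgeR adjusted p was 1.6e-07. The biliverdin reductase genes Blvra and Blvrb, which act just after heme oxygenase, fell by 0.60 and by 1.01. Of the genes around the transcription factor NRF2, which activates Hmox1 and the ferritin genes, Nfe2l2, its own gene, fell by 0.73. Keap1, the gene of its inhibitor, rose by 0.55. Bach1, a repressor of Hmox1, had a log2 fold change of -0.12 (edgeR adjusted p 0.468).

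Flvcr1, Abcg2, Lrp1 and Keap1 were the 4 genes of this list that rose. The heme exporter gene Flvcr1 stood at 25.1, 19.2 and 21.7 CPM in control and at 39.1, 50.7 and 39.5 in repletion samples, so the groups stood well apart. It rose by 0.97 ± 0.15 (SE), and its edgeR adjusted p was 9.0e-05. Abcg2, a transporter gene whose substrates include porphyrins, and Lrp1, the gene of the receptor for heme bound to hemopexin, rose by 0.63 and 0.44.

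Heme synthesis genes were in part lower. Of 12 tested, 1 rose (8.33%) and 4 fell (33.3%), against 20.5% and 19.2% of all tested features, with a median of -0.25. The count that rose was 2 without repletion replicate 1 or with the length and GC trend removed. Those that fell were Alas1, which starts the pathway in most cells (-0.49), Alad (-0.61), Urod (-0.49) and Ppox (-0.61). Fech, the ferrochelatase gene that inserts the iron, had a log2 fold change of -0.27 (edgeR adjusted p 0.0902). Uros rose by 1.36 from 15, 17 and 38 counts to 54, 68 and 59, and did not pass without control replicate 2 (0.0545, over a range of 0.00516 to 0.0545).

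Other genes of iron traffic also moved both ways. Of 16 tested genes for iron import, reduction and export, 2 rose (12.5%) and 5 fell (31.2%), with a median of -0.07. Over all tested features, 20.5% were called higher and 19.2% lower. The count that rose was 1 without control replicate 2 or 3. The count that fell was 3 without control replicate 3 or with scaling by library size only, and 2 without repletion replicate 3. Slc39a8, a metal importer gene, rose by 0.69 from 40.8, 43.2 and 47.3 CPM to 67.6, 73.1 and 71.4. The reductase gene Steap4 rose by 1.36 from 27, 15 and 16 counts to 49, 52 and 52, while its relatives Steap1 and Steap2 fell by 0.38 and 0.25. Steap4 was the gene that lost its call without control replicate 2 or 3, and Steap2 passed narrowly (edgeR adjusted p 0.0485). Lcn2, which encodes a protein that binds iron-carrying siderophores, fell by 0.54, and Mcoln1, a lysosomal cation channel gene, by 0.41. The genes of the plasma iron carrier and of the iron hormone, Trf and Hamp, were listed at 0. Trf shares exon positions with Gm20425 on the same strand, where reads may be left uncounted. Its 0 therefore does not show that the gene was silent.

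Cytosolic iron chaperone and sensing genes were lower where they were called. Of 11 tested, 0 rose, 4 fell (36.4%) and 7 were not called, with a median of -0.05. All tested features gave 20.5% higher and 19.2% lower. In edgeR's test 0 rose, 0 had a higher level at an unadjusted p under 0.05, and DESeq2 and limma-voom called 0 higher as well. The count that fell was 2 without control replicate 3 or without repletion replicate 3. Pcbp2, an RNA-binding protein that also delivers iron, fell by 0.74 from 357, 391 and 402 CPM to 255, 206 and 228, while its relative Pcbp1 had a log2 fold change of 0.00. The glutaredoxin gene Glrx3 fell by 0.59, and Fbxl5, whose product senses iron and marks the Ireb2 protein for degradation, fell by 0.35.

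Of 24 tested iron-sulfur cluster genes, 2 rose (8.33%) and 6 fell (25.0%), or 10 with no filter, with a median of -0.28. These shares stand against 20.5% higher and 19.2% lower of all tested features. Fdxr, the gene of the reductase that feeds electrons to cluster assembly, stood at 39.2, 35.6 and 41.3 CPM in control and at 16.7, 17.5 and 17.7 in repletion samples and fell by 1.16 ± 0.13 (SE). The late assembly genes Nfu1 and Ciapin1 fell by 0.63 and 0.56. The scaffold gene Iscu had a log2 fold change of -0.10 (edgeR adjusted p 0.691). Iba57 rose by 2.80 from 1, 7 and 24 counts to 45, 110 and 67, or by 4.10 without control replicate 3, so its size rests on few control reads.

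Among 10 tested genes that govern ferroptosis, a death by lipid oxidation that needs iron, 1 rose (10.0%) and 4 fell (40.0%), with a median of -0.22. The shares of all tested features were 20.5% higher and 19.2% lower. The count that rose was 2 without repletion replicate 1 or with scaling by library size only. The lipid peroxide reductase gene Gpx4 stood at a mean of 288 ± 25.5 CPM in control and 207 ± 16.7 in repletion samples (SD, n = 3). Of the paired chains of the cystine importer, Slc3a2 fell by 0.73 and Slc7a11 rose by 0.89. Acsl4, which makes the lipids that are oxidized, had a log2 fold change of 0.23 (edgeR adjusted p 0.0810).

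**Figure D5:**
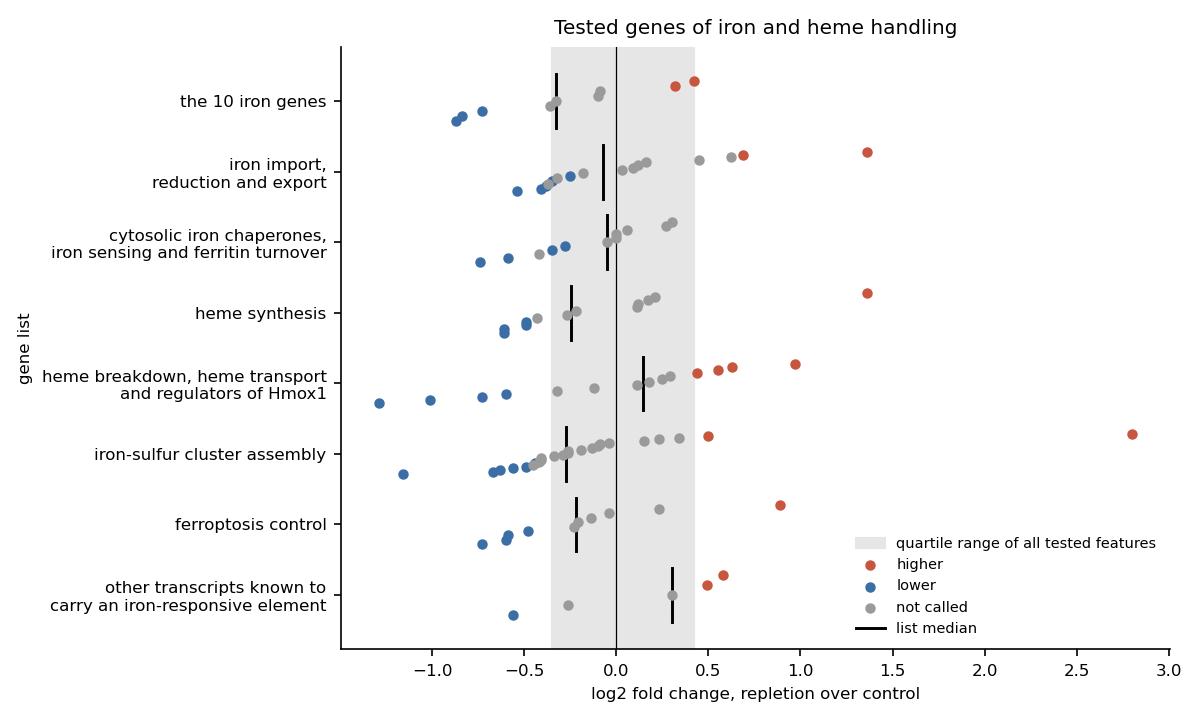
Log2 fold change of repletion over control (horizontal axis) for each tested gene of the 10 iron genes and of the 7 lists (rows); red points were called higher, blue points lower and grey points neither, black bars are list medians and the shaded band runs from -0.35 to 0.42, the quartiles of all tested features. Slc48a1 at -1.29 is the lowest point and Iba57 at 2.80 the highest.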

How the data were processed

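Per the labels, total RNA was extracted with TRIzol. The deposited table holds raw read counts per feature and sample, whole numbers that were used as given. Per the submitters' processing notes, the tools were featureCounts 1.5.0-p3, HISAT2 2.0.5 and DESeq2 1.20.0 and the build GRCm38.p6, with no roles stated. The strand setting is not given in the sources used here. The table also holds the authors' log2 fold changes, p-values and adjusted p-values, per the file headers, quoted only where named. Its 6 FPKM columns and 2 group means were not used.

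The 10 genes, the lists and the element search were chosen with earlier results of these data known. Features were filtered with filterByExpr (13804 of 55232 kept), scaled with TMM (factors 0.970 to 1.03) and tested with edgeR 4.0.16 (glmQLFit, glmQLFTest; R 4.3.3), two-sided, threshold 0.05. The common biological coefficient of variation was 14.1%. SE and 95% intervals were derived from the F statistic. Marker sums use unscaled totals. Ratios used counts plus 0.5. Copies were sought with BLAST 2.17.0 (95% identity, 200 bases). Alternatives were DESeq2 1.42.0, limma-voom (limma 3.58.1), other scalings and filters, protein-coding genes only, removal of the length and GC trend (loess span 0.5), a replicate block and each library left out.

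Named were all 10 genes, their copies and, per list, the gene with the smallest p called in each direction; other list genes were chosen after their values were seen. Among printed list genes, Trf, Pcbp1, Pcbp2, Flvcr1, Slc48a1, Cdc42bpa, Cdc14a, Fbxl5, Keap1, Alas1, Ppox, Ciapin1 and Hmox2 share exon positions with other features. Slc7a11, Gpx4, Glrx3, Nfu1, Iscu, Fech and Hmox2 share sequence with other features. The values of all these genes are uncertain. The result of 1 list gene is not reported here.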

Additional observations from a re-analysis of the deposited data

How the results depend on the processing

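Fth1, Ftl1 and Hmox1 stayed called lower in all 16 alternatives, with log2 fold changes of -1.03 to -0.69, -0.96 to -0.67 and -0.83 to -0.58. Tfrc lost its call in 6 of 16 and Ireb2 in 2, with values of 0.23 to 0.38 and 0.26 to 0.51. The count of iron genes called higher was 1 with no filter, where the median of all features was 0.13, 1 with a replicate block, 0 with that block and the length and GC trend removed, and 0 to 2 over the libraries left out. The count called lower was 5 with the trend removed, with or without the block, through Ncoa4 and Steap3. With the block alone, the adjusted p of Tfrc was 0.0501 (edgeR). With the block and the trend removed it was 0.0580 for Tfrc and 0.0699 for Ireb2 (edgeR). The replicate numbers are not shown to pair the samples, since deviations of same-numbered samples correlated at -0.076, -0.033 and 0.055. A paired sign-flip test of the ratios with the replicate block cannot go below 0.25, the exact p of Tfrc to Fth1 (log2 difference 1.21, the same by construction), and so shows nothing about stability. With a library left out, the log2 difference ran from -0.18 to 0.25 for Ftl1 to Fth1 and from -0.91 to 1.48 for Tfrc to Slc40a1, so neither has a stable direction. Of the 224 list counts recomputed, 17 moved by over 1.5 times. Leaving out libraries lowers the number of samples. Depth limits Slc40a1, Uros, Steap4, Iba57, 4931428F04Rik and Jaml, whose control libraries held few reads.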
